A study of Homo sapiens with 12 samples.

Results

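This account covers 10 genes of homologous recombination repair, EXO1, BRCA1, BARD1, BRIP1, RAD54L, RAD51AP1, FIGNL1, MMS22L, BLM and XRCC2, out of 18404 genes measured. The genes were listed by name for their function and selected on values of these same arrays, namely their lower level after all-trans retinoic acid (ATRA) and their higher level in knockdown than in control cells after ATRA. Each of the 10 had exactly 1 probe set annotated to a single gene, so no member was lost. Expression was measured on 12 Affymetrix ST arrays with total RNA of NB4, a cell line from a human acute promyelocytic leukemia whose cells turn into granulocyte-like cells under ATRA. The controls comprise wild type NB4, with 1 array per state, and NB4 carrying a scrambled shRNA, with 2. The knockdown cells express an shRNA to the long noncoding RNA HOTAIRM1, of the HOXA locus, either shRNA1 (2 arrays per state) or shRNA2 (1 array per state). Every kind of cell was measured untreated and after 96 hours in 0.5 uM ATRA, which gives 4 arms of 3 arrays. The shRNA lines came from lentiviral pLKO.3G vectors, were sorted for the vector's GFP marker and were grown from single cells, whereas wild type cells went through none of these steps. No probe set was annotated to HOTAIRM1 alone, so the level of the knocked down RNA could not be checked on these arrays.

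Homologous recombination repairs a broken chromosome by copying the intact sister chromatid, which exists only after the DNA has been replicated, so the pathway works mainly in S and G2 phase. The broken ends are first cut back to single strands by nucleases such as EXO1. BRCA1, in a ubiquitin ligase with BARD1, then promotes the later steps, in which the single strand invades the sister DNA. The joined molecules are finally taken apart by BLM and its partners or cut by nucleases. In dividing progenitors of the granulocyte lineage the pathway is used beside replication, and mature granulocytes no longer divide.

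The values are log2 intensities normalised by the submitters. The medians of the arrays lay between 7.73 and 7.81, and precision is limited by how few arrays there are. A probe set's level depends on its own probes, so levels are compared between arrays and never between genes. Of 5 measured markers of promyelocytes, MPO had arm means of 13.2 to 13.8, and CTSG of 7.89 to 10.5. CTSG fell with ATRA in knockdown cells (-2.45, limma, adjusted p = 0.00356). No other change of the 5 with ATRA passed an adjusted p of 0.05, in control or in knockdown cells. All 10 measured markers of mature granulocytes rose with ATRA in control and in knockdown cells (limma, adjusted p under the threshold of 0.05). The array of untreated scrambled cells replicate 2 stood apart: on the axis of largest variance (66.7% of it) it lay at -10.6, and the other untreated arrays at -41.2 to -32.5. On that array the summed level of the mature granulocyte markers was the highest of the untreated controls, at 92.7 against a lowest of 84.1. Its part in the results below was not tested beyond leaving the array out.

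Promoter sequences are shown first because the values of the 10 genes varied together over the arrays. RefSeq (GRCh38.p14) gave windows of 300 bases, from 250 before to 50 after an annotated start, for all 10 genes, 13 windows in all because EXO1, BRCA1 and RAD54L have 2 each. E2F factors, which drive genes needed for DNA replication, bind sites of the form TTTNNCGC with each N a C or G. On either strand this site lay in the windows of 2 of the 10 genes, EXO1 and XRCC2. Of the 14230 tested genes that had a window, 5.51% held it, and all motif shares of genes tested refer to these. The shorter core TTCCCGC, which overlaps that site wherever the latter reads TTTCCCGC and which was searched only after the windows had been seen, lay in 8 of the 10, all but EXO1 and FIGNL1, against 10.9% of the genes tested. By windows the core was present in 69.2% of the members' and in 6.55% of all 35116. Among the 36 replication genes described below that had a window the core was present in 52.8% and the longer site in 55.6%. For the 32 other recombination genes described below that had a window the shares were 18.8% and 15.6%. The matches are printed 5′ to 3′ on the strand of each gene, 30 bases each, with the core in capitals (TTCCCGC or its reverse complement GCGGGAA) or, for EXO1, the longer site.
EXO1: aaaggtcagccTTTCGCGCgctgtgtaggc
BRCA1: aacggaaaagcGCGGGAAttacagataaat
BARD1: ccgtcccagacGCGGGAAgagcttggccgg
BRIP1: gggggcgggagGCGGGAAttcgtctcgggt
RAD54L: gcgcagcactaTTCCCGCctcttccttggg
RAD51AP1: tctggttttggGCGGGAAttgaaaccgccg
MMS22L: ggcgcgcggtgGCGGGAAtttcgcctgttt
XRCC2: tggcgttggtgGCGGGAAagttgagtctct

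These stretches are chr1:241848197-241848226 (plus strand), chr17:43125393-43125422 (minus), chr2:214809661-214809690 (minus), chr17:61863508-61863537 (minus), chr1:46247628-46247657 (plus), chr12:4538858-4538887 (plus), chr6:97283173-97283202 (minus) and chr7:152676102-152676131 (minus). In all 8 the match lay close to the start, beginning at base -49 in RAD54L, -47 in BRCA1, -21 in RAD51AP1, 3 in BRIP1, 5 in EXO1 and BARD1, 22 in XRCC2 and 26 in MMS22L, where base 1 is the annotated start that the window surrounds. For EXO1, BRCA1 and MMS22L the gene record of RefSeq begins farther upstream than that start. The RAD54L stretch lies in both of its windows, and the bases are counted from the first of them. BLM is shown at greater length because its window held 2 cores, at bases -74 and 4, beside 3 matches to CCAAT, the box bound by NF-Y. The 150 bases before its start, at chr15:90717196-90717345 on the plus strand, have the first core and the 3 boxes (CCAAT or its reverse complement ATTGG) in capitals.
BLM: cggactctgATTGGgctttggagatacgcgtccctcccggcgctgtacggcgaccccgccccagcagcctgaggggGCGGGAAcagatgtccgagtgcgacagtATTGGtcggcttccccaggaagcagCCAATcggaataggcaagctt

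CCAAT lay in windows of 6 of the 10 genes and in those of 42.2% of the tested genes that had a window. The CHR element, TTTGAA, found before many genes of mitosis, lay in 1 of the 10, BRIP1, and in 15.7% of those tested genes. FIGNL1 had none of the 4 motifs in its window. These are matches of letters on both strands and say nothing about binding.

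**Figure D1:**
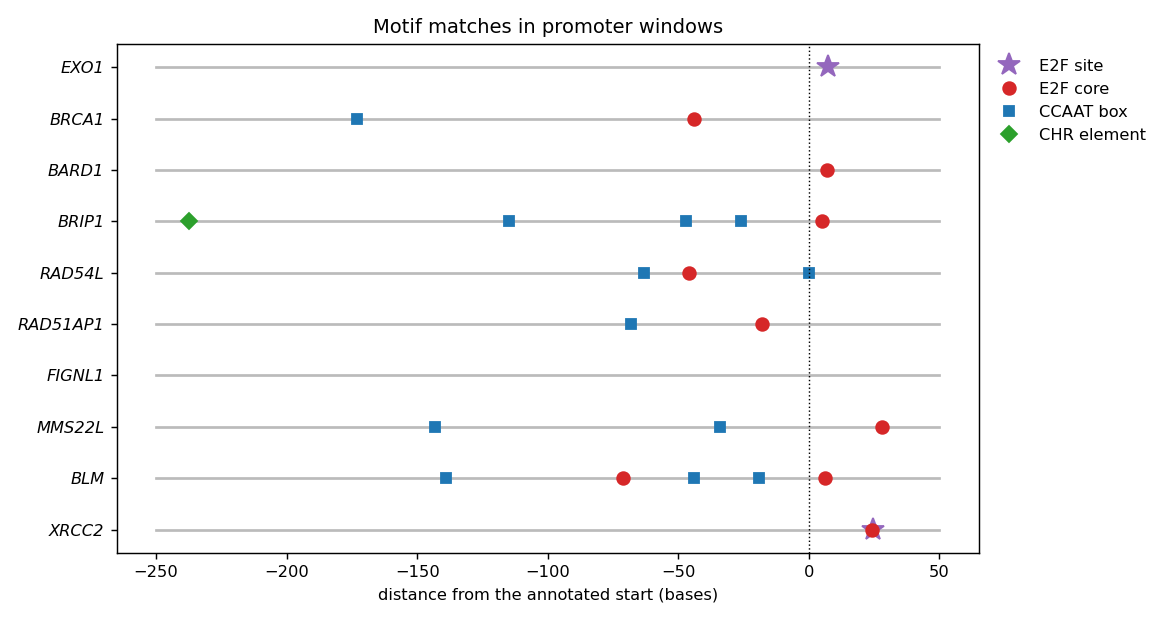
Positions of motif matches along the promoter window of each gene, in bases from the annotated start that the window surrounds, with 1 window per gene (for BRCA1 the window that held matches, for EXO1 and RAD54L the first). Red circles mark the E2F core, purple stars the longer E2F site, blue squares CCAAT and the green diamond the CHR element; the core or the site lies near the start in 9 of the 10 genes.

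All changes of the members with ATRA, and the differences between knockdown and control cells after ATRA, are descriptions, since the genes were chosen with these contrasts known. The untreated comparison of knockdown with control cells played no part in the choice and was tested. In control cells the 3 ATRA arrays lay below the 3 untreated arrays for all 10 genes, as they did for 23.4% of all genes, and 20.9% of all genes were called lower there by limma at an adjusted p of 0.05. The median of the members' fitted changes was -0.99 (log2, ATRA minus untreated) against 0.05 over all genes. In knockdown cells the median was -0.34, and the 2 sets of arrays did not overlap for 8 of the 10 (24.6% of all genes, with 14.7% called lower). After ATRA all 3 knockdown arrays lay above all 3 control arrays for each of the 10, with a median difference of 0.63 (log2, knockdown minus control). The same was so for 14.3% of all genes, and 0.0543% were called higher. Before ATRA the arrays of the 2 kinds of cells overlapped for every one of the 10. Over all genes, the untreated knockdown arrays lay wholly above the untreated control arrays for 3.75%. The share lying wholly below was not counted, and nothing is read from the members' overlap.

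The first group is BRCA1 and the proteins that act with it. BRCA1 read 9.67 in untreated wild type cells and 9.14 and 9.90 in the untreated scrambled arrays, and 8.28, 8.88 and 8.58 on the matching ATRA arrays. In knockdown cells it read 9.52 and 9.73 (shRNA1) and 9.58 (shRNA2) untreated, and 9.23, 9.47 and 9.30 after ATRA. The lowest untreated control array and the highest ATRA control array were thus 0.26 apart, whereas in knockdown cells the gap was 0.04. The fitted change with ATRA was -0.99 (SE 0.18) in control and -0.28 (SE 0.18) in knockdown cells, 1.99-fold and 1.21-fold lower, and after ATRA knockdown cells lay 0.75 (SE 0.18) above control cells, or 1.68-fold.

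BARD1, the partner that makes BRCA1 an active and stable ligase, read 8.72, 8.50 and 9.17 untreated and 7.81, 8.18 and 8.04 after ATRA in wild type and scrambled cells. Its knockdown values were 8.57, 8.54 and 8.68 untreated and 8.40, 8.41 and 8.43 after ATRA. The 3 treated knockdown arrays differed by 0.03 at most, inside the gap left between the 2 control states. BARD1 had the smallest difference of the 10 after ATRA, 0.40 (SE 0.15, 1.32-fold).

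BRIP1, a helicase that binds BRCA1 and is also known as FANCJ, was the member that lay no lower after ATRA in knockdown cells. Its control values were 9.21, 8.93 and 9.56 untreated and 8.03, 8.52 and 8.49 after ATRA, a change of -0.88 (SE 0.16). The knockdown values were 9.30, 9.06 and 9.05 untreated against 9.14, 9.08 and 9.21 after ATRA, a change of 0.01 (SE 0.16), and the 2 sets overlapped. After ATRA the knockdown cells therefore lay 0.80 (SE 0.16, 1.74-fold) above control cells, the largest such difference among the 10.

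EXO1, the exonuclease that lengthens the single strand at a break, had the largest change in control cells. It read 9.84, 9.82 and 9.51 untreated and 8.06, 8.32 and 8.04 after ATRA, a change of -1.58 (SE 0.11, 2.99-fold lower). In knockdown cells it read 9.83, 9.81 and 9.78 untreated and 8.76, 8.85 and 9.03 after ATRA, a change of -0.93 (SE 0.11, 1.90-fold lower). Every treated knockdown array lay between the treated and the untreated control arrays, 0.74 (SE 0.11) above the treated controls on average. As a share of the change in control cells, the knockdown cells showed 58.5% for EXO1, a share exceeded among the members by XRCC2, at 63.6%.

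The next 5 genes act around strand invasion. XRCC2, which helps to prepare the single strand for it, read 11.27, 11.30 and 10.75 in untreated control cells and 9.82, 9.96 and 9.63 after ATRA, a change of -1.31 (SE 0.15). Its knockdown values were 11.41, 11.35 and 11.17 untreated and 10.56, 10.30 and 10.58 after ATRA, a change of -0.83 (SE 0.15). The 4 arms kept apart, except that the untreated control and untreated knockdown arrays overlapped.

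RAD54L, a motor protein that moves along DNA and promotes strand exchange, read 9.24, 9.22 and 9.06 untreated against 8.04, 8.36 and 8.18 after ATRA in control cells, and 9.25, 9.11 and 9.24 against 8.66, 8.85 and 8.88 in knockdown cells. The untreated values spanned 0.19 over both kinds of cells, less than the gap of 0.30 between treated control and treated knockdown arrays. The fitted changes were -0.99 and -0.41 (SE 0.10 each).

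RAD51AP1, which stimulates the joining of the strands, had the smallest change in control cells, -0.72 (SE 0.11). It read 9.67, 9.64 and 9.80 untreated and 9.12, 9 and 8.85 after ATRA. In knockdown cells the 2 states overlapped, with 9.67, 9.51 and 9.78 untreated and 9.34, 9.55 and 9.70 after ATRA.

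FIGNL1, an ATPase of the AAA family that acts in recombination, had closely grouped knockdown values. It read 8.58, 8.57 and 8.59 untreated and 8.31, 8.31 and 8.35 after ATRA. The control arrays read 8.58, 8.48 and 8.28 untreated and 7.59, 7.71 and 7.74 after ATRA. After ATRA the lowest knockdown array was 0.57 above the highest control array, the widest gap of the 10, with a fitted difference of 0.64 (SE 0.08, 1.56-fold).

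MMS22L, which works with TONSL at damaged replication forks, read 9, 8.92 and 8.86 untreated and 7.66, 7.95 and 7.96 after ATRA in control cells. The knockdown values were 8.95, 8.98 and 9.03 untreated and 8.39, 8.48 and 8.56 after ATRA. Treated knockdown cells lay about midway between the treated and untreated states of control cells, since their change was 47.6% of the control change.

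BLM, the helicase that dissolves joined molecules together with TOP3A, RMI1 and RMI2, read 10.43, 10.21 and 10.29 untreated and 9.07, 9.35 and 9.27 after ATRA in control cells. In knockdown cells it read 10.49, 10.46 and 10.04 untreated and 9.50, 9.80 and 9.93 after ATRA. The mean change of BLM with ATRA was -0.82 in shRNA1 cells and -0.11 in shRNA2 cells. The gap between treated knockdown and treated control arrays was the narrowest of the 10, at 0.15.

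**Figure D2:**
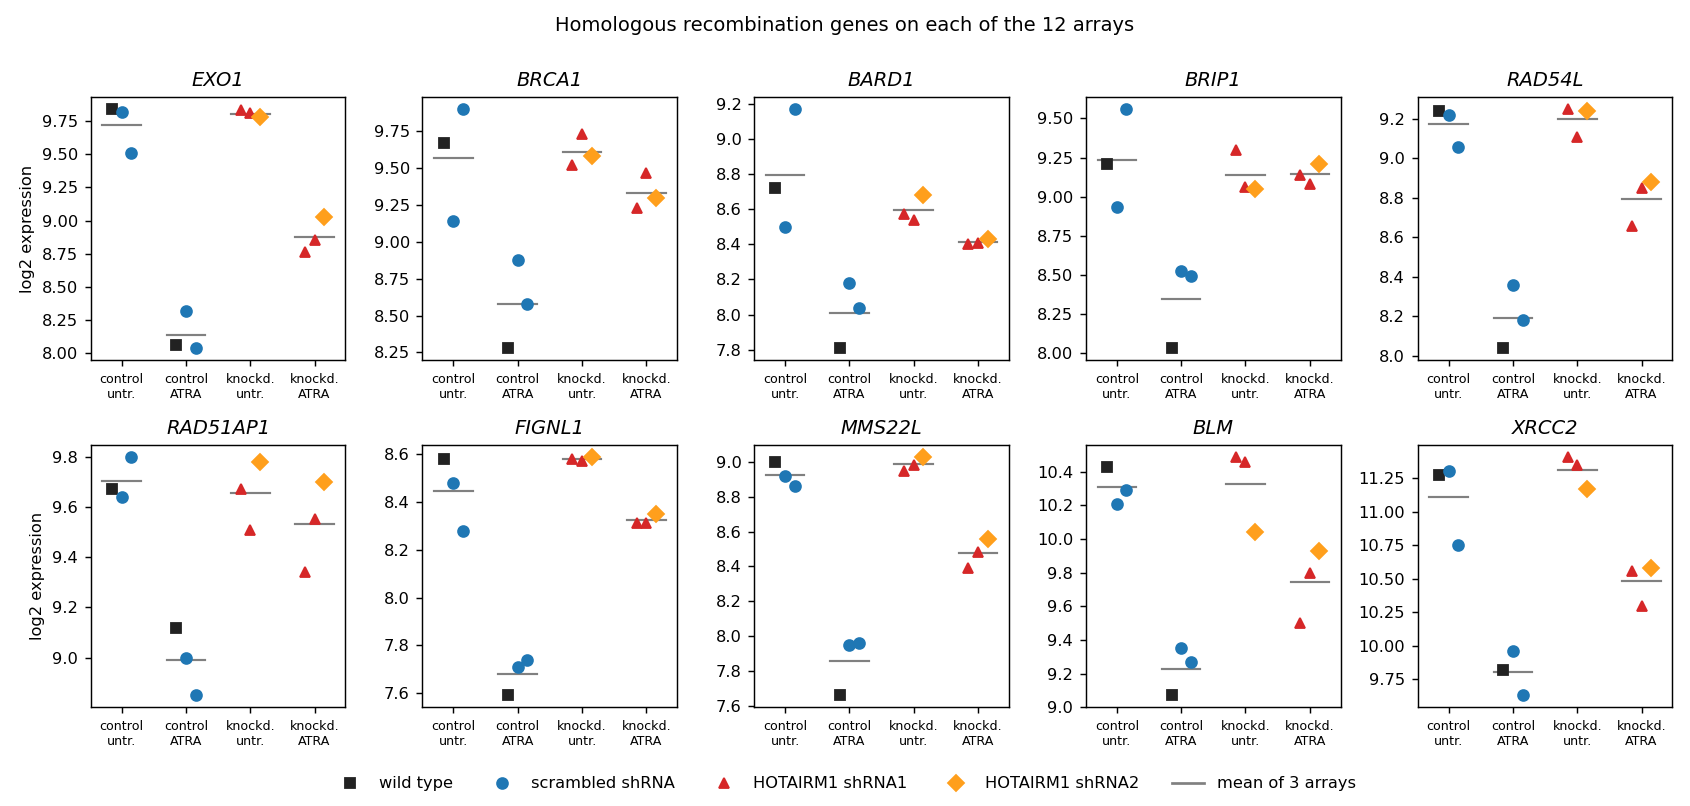
Log2 expression of the 10 genes on each array, by arm (control or knockdown, untreated or after ATRA), with 1 point per array, shaped by line, and a grey line at the mean of the 3 arrays. The vertical scale differs between panels; in every panel the 3 treated knockdown arrays lie above the 3 treated control arrays, and the untreated arms overlap.

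The change was also taken per line, as the mean of its ATRA arrays minus the mean of its untreated arrays. The median over the 10 genes was -1.27 in wild type, -0.84 in scrambled, -0.35 in shRNA1 and -0.27 in shRNA2 cells. Wild type cells changed more than scrambled cells for 9 of the 10, with RAD51AP1 (-0.56 and -0.80) as the exception. The value of shRNA2 cells was above that of shRNA1 cells for 8 genes, with BLM the farthest apart, and below it for BRCA1 (-0.29 against -0.27) and BARD1 (-0.24 against -0.15). With 1 array per state in wild type and shRNA2 cells, these differences between lines were not tested. Averaged over the 10 genes, each centred on its own mean, the treated control arrays lay at -0.81 (wild type), -0.53 and -0.68, the treated knockdown arrays at -0.13, -0.04 and 0.04, and the untreated arrays between 0.26 and 0.41.

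**Figure D3:**
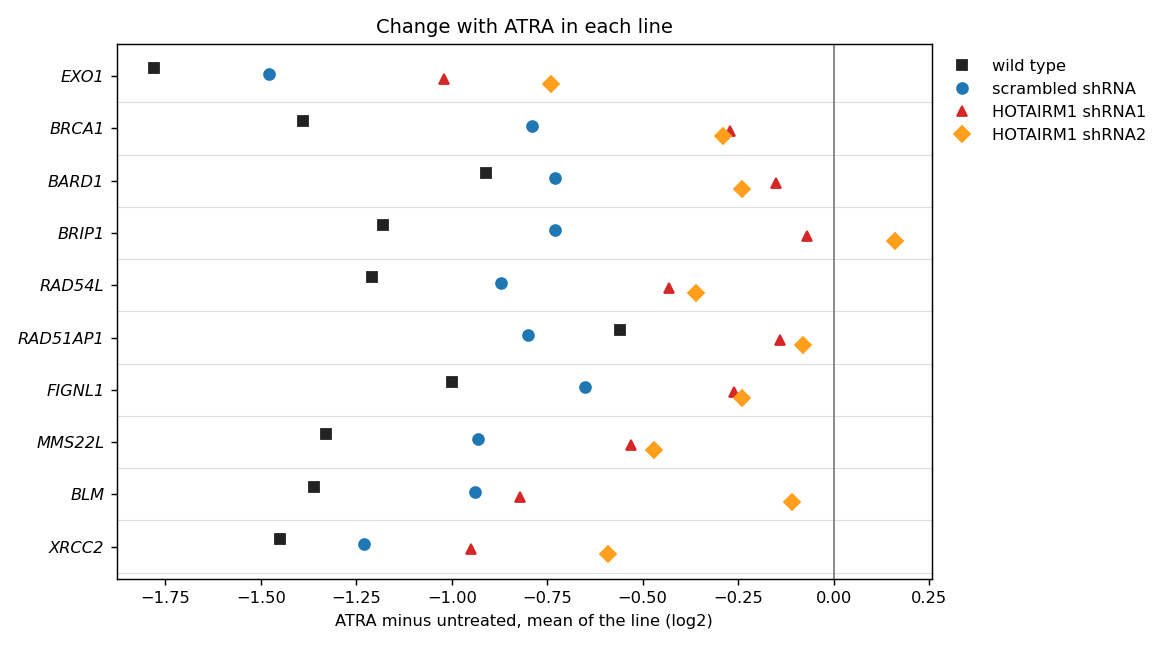
Change with ATRA (log2, mean of the ATRA arrays minus mean of the untreated arrays) of each gene in wild type, scrambled, shRNA1 and shRNA2 cells, with the vertical line at 0. Wild type and scrambled cells lie to the left of both shRNA lines for every gene.

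Whether the knockdown cells already differed before ATRA was tested with limma, with p adjusted by Benjamini-Hochberg over all 18404 genes. No member was called: the adjusted p was 0.999 for each of the 10, and the unadjusted p ran from 0.136 (FIGNL1) to 0.903 (BLM). In this contrast 0% of all genes were called higher and 0% lower. The differences ran from -0.20 (BARD1, 95% interval -0.52 to 0.12) to 0.20 (XRCC2, -0.12 to 0.52), and their median was 0.03. For EXO1 the interval was -0.16 to 0.33, for BRCA1 -0.37 to 0.44, for BRIP1 -0.44 to 0.26, and for MMS22L -0.13 to 0.26. These intervals do not show that the levels were equal. Both ends of that range, and other members, moved with single scrambled arrays. Without untreated scrambled replicate 2 the difference was -0.02 for BARD1, 0.02 for XRCC2 and 0.20 for BRCA1, and without replicate 1 it was -0.35 for BARD1, -0.24 for BRIP1 and -0.18 for BRCA1.

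In the other contrasts the calls stand beside those of all genes, and nothing is read from the members' own. With ATRA in control cells 15.2% of all genes were called higher beside the 20.9% called lower, and 10 of the 10 members were called lower. In knockdown cells 14.7% of genes were called lower and 10.1% higher, with 6 members called lower. Between knockdown and control cells after ATRA 0.0543% of genes were called higher and 0.00543% lower, with 3 members called higher. The difference in response between the 2 kinds of cells was called for 0% of genes in either direction, members included, although the members' fitted values were positive throughout, from 0.48 (XRCC2) to 0.89 (BRIP1). With scrambled and shRNA1 arrays only, this value was 0.12 for BLM in place of 0.50 and 0.28 for XRCC2 in place of 0.48, and the difference of BLM after ATRA was 0.34 in place of 0.52. The calls after ATRA, 10 higher and 1 lower over all genes, moved strongly with the settings, to 138 higher and 142 lower with quantile normalization and to 420 and 281 without the untreated scrambled replicate 2 array, and to 0 on leaving out any of several other arrays.

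The wider pathway was described with 49 other recombination genes listed by function, of which 41 were measured. In control cells 28 of the 41 fell with ATRA and 1 rose (limma, adjusted p under 0.05), with a median change of -0.41. In knockdown cells 8 fell and 1 rose, with a median of -0.13. Without the 2 wild type arrays, 18 fell in control cells. After ATRA the arrays of knockdown and control cells were separate, with knockdown higher, for 22 of the 41 (53.7%, against 14.3% of all genes), and 1 gene was called higher. The median difference there was 0.27. No gene of the 41 was called before ATRA, 2 having an unadjusted p under 0.05, or for the difference in response, where 13 had one. Over all 18404 genes the numbers with one were 727 and 2815. Between knockdown and control cells after ATRA 25 of the 41 had one, against 5171 of all genes.

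By role, 6 of 8 genes of end resection fell in control cells and 1 in knockdown cells. DNA2, a nuclease and helicase that resects in parallel with EXO1, changed by -1.07 in control cells (limma, adjusted p = 8.75e-05) and by -0.22 in knockdown cells (adjusted p = 0.186). It read 8.97, 9.22 and 8.95 on the treated control arrays and 9.76, 9.78 and 9.97 on the treated knockdown arrays, with no overlap. DNA2 was the 1 gene of the 41 called between knockdown and control cells after ATRA (0.79, SE 0.11, limma adjusted p = 0.0362). That call held in 8 of 19 alternatives, in which the value stayed between 0.68 and 0.87 and the adjusted p between 0.0252 and 0.217. WRN, the Werner syndrome helicase, fell by 1.17 in control cells (limma, adjusted p = 0.000211) and by 0.83 in knockdown cells (adjusted p = 0.00229). NBN, which with MRE11 and RAD50 forms the complex that senses breaks and starts resection, went the other way. It rose by 0.71 in control cells (limma, adjusted p = 0.0021) and by 0.61 in knockdown cells (adjusted p = 0.00696), while MRE11 fell by 0.74 in control cells and RAD50 was not called (-0.21).

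Of the BRCA1 complexes, 6 of 7 genes fell in control cells and 1, PALB2, in knockdown cells. PALB2, which links BRCA1 to BRCA2, changed by -0.94 in control cells (limma, adjusted p = 0.000215) and by -0.53 in knockdown cells (adjusted p = 0.0083). ABRAXAS1, the scaffold of the complex that brings BRCA1 to ubiquitin at breaks, read 0.77 higher in knockdown than in control cells after ATRA without passing the threshold (limma, adjusted p = 0.0506). Untreated knockdown cells already read 0.27 above control cells for ABRAXAS1, with separate arrays (limma, adjusted p = 0.999). Its difference in response was 0.50 (limma, adjusted p = 0.282). ABRAXAS1 is named here after its value was seen.

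Of 12 genes that act around strand invasion, 6 fell in control cells and 4 in knockdown cells. RAD54B, the relative of RAD54L, fell in both, with changes of -1.14 (limma, adjusted p = 0.000212) and -0.87 (adjusted p = 0.00152). FIRRM, the partner of FIGNL1, also fell in both, by 0.73 (limma, adjusted p = 0.000216) and by 0.32 (adjusted p = 0.0267). TONSL, the partner of MMS22L, was not called in control cells, where its change was -0.08 (limma, adjusted p = 0.326), and in knockdown cells -0.23 (adjusted p = 0.0166). TONSL read 8.39, 8.47 and 8.47 on the treated control arrays and 8.33, 8.28 and 8.29 on the treated knockdown arrays, so that here the knockdown values were the lower ones (-0.14, limma adjusted p = 0.167). RAD51D, BRCA2 and RBBP8 had no probe set annotated to a single gene and are not analysed here.

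Of 3 measured genes that restrain recombination, 2 fell in control cells and 1 in knockdown cells. That 1 was PARPBP, which limits recombination in S phase, with -0.73 in knockdown cells (limma, adjusted p = 0.00342) beside -0.85 in control cells (adjusted p = 0.000962). Of 8 genes that resolve joined molecules, 5 fell in control cells and 0 in knockdown cells. In knockdown cells 2 of the 8 had an unadjusted p under 0.05, as had 6362 of all 18404 genes. Among BLM's partners, TOP3A changed by -0.51 (limma, adjusted p = 0.00273) and RMI1 by -0.72 (adjusted p = 0.00387) in control cells, and RMI2 by -0.32 (adjusted p = 0.151). The late helicase genes MCM8, MCM9 and HROB all fell in control cells, by 0.64, 0.70 and 0.47, and MCM8 fell in knockdown cells, by 0.34.

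End joining, which seals breaks without a template and works through the whole cell cycle, was counted for comparison. Of its 15 genes 9 fell and 1 rose in control cells, and 7 fell and 2 rose in knockdown cells. The 2 with the smallest p in control cells were MAD2L2 (-0.69, limma adjusted p = 0.000109) and TP53BP1 (-0.56, adjusted p = 0.000388), both of which steer breaks away from resection. None was called between knockdown and control cells after ATRA, where the median was 0.19. There 6 of the 15 had an unadjusted p under 0.05, as had 5171 of all 18404 genes.

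Replication genes moved alongside the recombination genes. Of 39 measured, 37 fell in control cells (median -1.03) and 29 in knockdown cells (median -0.53). After ATRA knockdown cells lay above control cells by a median of 0.50, with separate arrays for 33 of the 39 (84.6%, against 14.3% of all genes) and 1 gene, ORC6, called (0.51, limma adjusted p = 0.0362). Of 25 mitosis genes measured, 23 fell in control and 23 in knockdown cells (medians -0.77 and -0.70), and after ATRA the arrays were separate, with knockdown higher, for 3 of the 25 (12%, near the 14.3% of all genes, median 0.19). Averaged over the list, the treated control arrays lay between -0.82 and -0.46 for replication genes and the treated knockdown arrays between -0.20 and -0.09, each gene centred on its own mean. The part of replication, or of the share of cells in S phase, in the members' values was not tested. In bulk RNA fewer cells of a kind and less RNA per cell cannot be told apart.

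**Figure D4:**
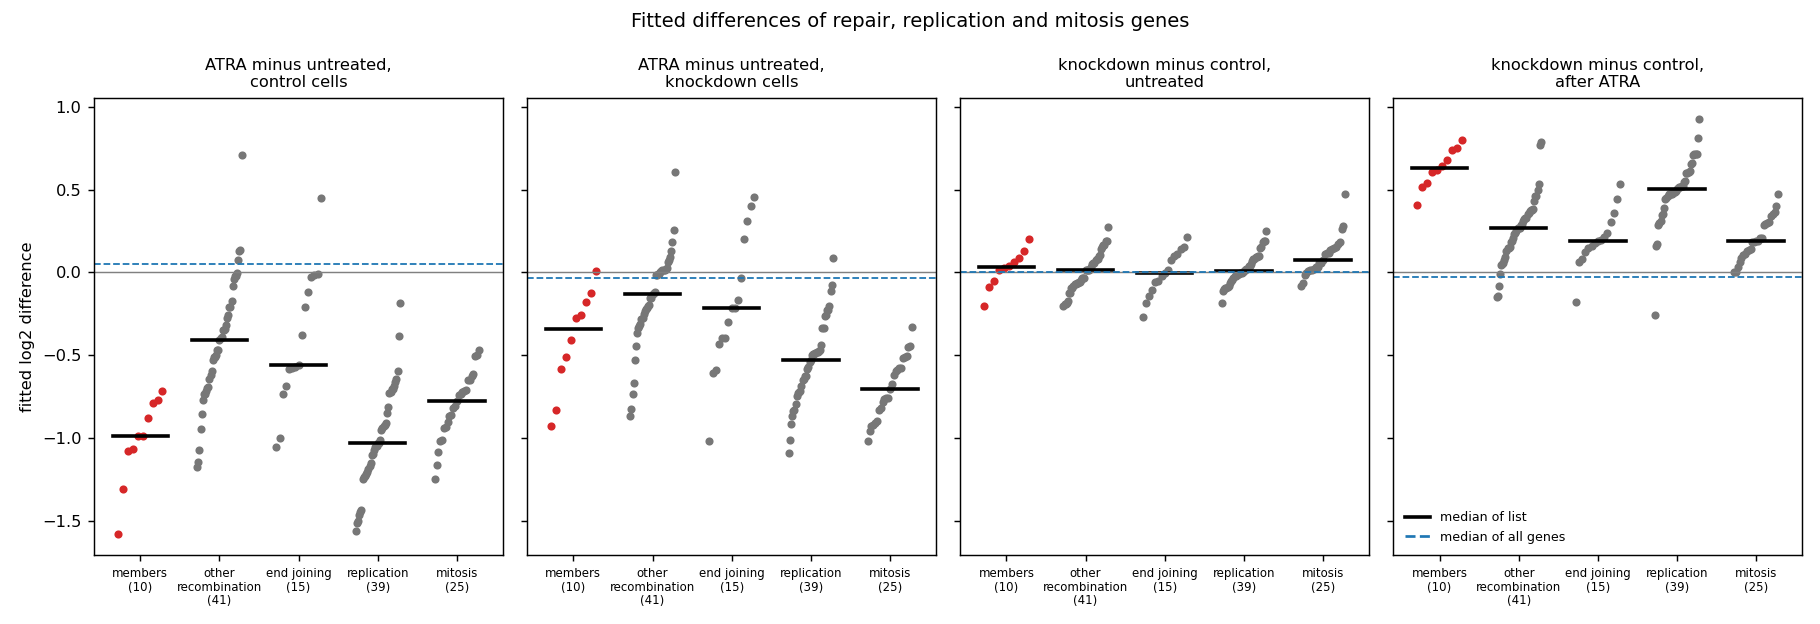
Fitted log2 differences of single genes (points, sorted within each list) for the 10 members (red) and for 41 other recombination, 15 end joining, 39 replication and 25 mitosis genes (grey), in 4 comparisons. Black bars are the medians of the lists and the blue dashed line the median of all 18404 genes; after ATRA the medians of knockdown minus control are 0.63, 0.27, 0.19, 0.50 and 0.19 in that order.

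The members' likeness to each other had 2 layers. Over all 12 arrays Pearson's r between pairs ran from 0.692 (XRCC2 and BRIP1) to 0.988 (MMS22L and RAD54L), with a median of 0.87 over 45 pairs, a description dominated by the shared change with ATRA. Once each arm's mean was taken off, r ran from -0.628 to 0.863 with a median of 0.219, and 33 of the 45 pairs were above 0. BRCA1, BARD1 and BRIP1, whose proteins meet in complexes with BRCA1, deviated together, with r of 0.842 (BRCA1 and BARD1), 0.863 (BARD1 and BRIP1) and 0.756 (BRCA1 and BRIP1). EXO1 deviated with RAD54L (0.809) and XRCC2 (0.777), and RAD54L with MMS22L (0.76). The lowest value, -0.628, was between BARD1 and XRCC2. The 2 sets went opposite ways on the array of untreated scrambled cells replicate 2, which had the highest BRCA1, BARD1 and BRIP1 of all untreated arrays and the lowest EXO1, XRCC2, FIGNL1, RAD54L and MMS22L. The split into sets rested on that array. Without it, over 11 arrays, the median r within arms was 0.499 and the lowest -0.228, BARD1 and FIGNL1 went from -0.392 to 0.854, and BARD1 and XRCC2 to -0.00301, while BRCA1 and BARD1 stayed at 0.817 and EXO1 and RAD54L at 0.787. BRCA1 and BRIP1 then had 0.632, and BARD1 and BRIP1 0.778. FIGNL1 had 0.875 with BRIP1 and 0.898 with MMS22L, so high values were not particular to BRCA1, BARD1 and BRIP1. The sets were noticed, and this array left out, after the values were seen, and the points share their arrays, so no test was made.

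**Figure D5:**
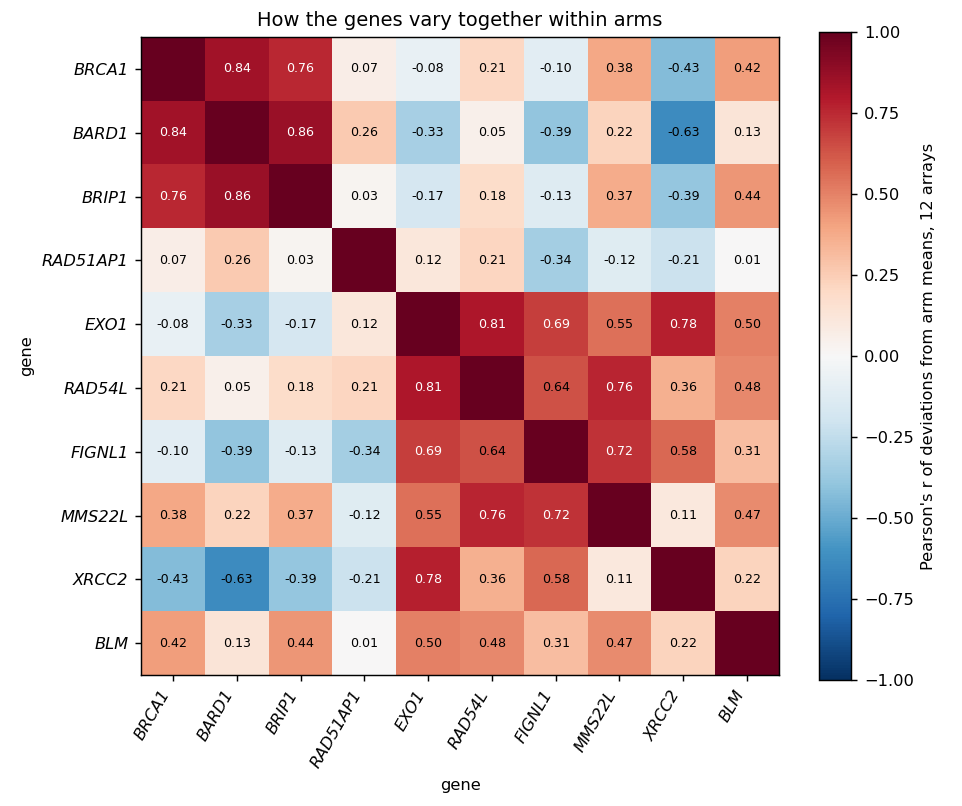
Pearson's r between the 10 genes over the 12 arrays after the mean of each arm was subtracted (color scale from -1 to 1, values printed in the cells). BRCA1, BARD1 and BRIP1 form one block of high values and EXO1, RAD54L, FIGNL1 and MMS22L another; without the untreated scrambled replicate 2 array the negative values between the blocks are gone (BARD1 and FIGNL1 then 0.854).

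Genes outside all lists whose profile over the 12 arrays was most like the mean of the members were TFB1M (Pearson's r 0.989), MYNN (0.987), YEATS4 (0.985), IFT122 (0.982), NASP (0.982) and FANCM (0.98). TFB1M methylates mitochondrial ribosomal RNA, NASP is a histone chaperone, and FANCM is a DNA translocase of the Fanconi anemia pathway. Among replication genes ORC6 (0.982), CDC6 (0.979) and CHAF1B (0.979) came closest, and in the wider recombination list DNA2 (0.967), RPA2 (0.958) and PALB2 (0.953). These values describe 12 arrays that share the effect of ATRA, and they carry no test.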

How the data were processed

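Total RNA was labelled with biotin and hybridised to ST arrays, 12 in all. The deposited log2 values were made by the authors with RMA, and limma is also named, per the submitters' processing notes, without versions. The genome build is not given in the sources used here. The values were used as deposited. The platform annotation gave a single gene for 19158 of 32321 probe sets, several genes for 1388 and no entry for 11775. The probe set with the highest mean stood for a gene, which gave 18404 genes with no filter on low values.

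Differences were fitted with limma 3.58.1 in R 4.3.3 (lmFit on 4 arm means, eBayes defaults), with two-sided p adjusted by Benjamini-Hochberg over all genes of a contrast. Standard errors come from the moderated variances. The p-values measure the spread between the arrays of an arm. Each arm pools lines (wild type with scrambled, shRNA1 with shRNA2), so differences between lines are part of that spread. The labels call the duplicates biological without naming separate clones, so the spread between duplicates may be technical. Line and knockdown cannot be told apart by a model. Exact permutation of 3 against 3 arrays was not used. The script was tested on simulated data.

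The members and all lists were chosen with earlier results of these data known. Named were all members, per contrast the 3 wider genes of smallest p in each direction, 10 known partners, 2 end joining genes and the genes of most alike profile, and a gene chosen otherwise is said to be so. Markers of lymphoid, erythroid and monocyte cells were also listed. Their summed log2 values lay, over the arrays, between 42.0 and 45.5 for 6 measured lymphoid genes, 33.9 and 35.1 for 4 erythroid genes and 27.1 and 30.1 for 4 monocyte genes. With ATRA 3 monocyte genes rose in control cells (75%, against 15.2% of all genes) and 2 in knockdown cells (50%, against 10.1%). In each kind of cell 1 lymphoid gene fell, and 1 erythroid gene rose in control cells (limma, adjusted p under 0.05). Motifs were counted by exact match on both strands of RefSeq windows. Alternatives were quantile normalization, a filter on low genes, the mean of probe sets, array weights, trended robust variances and subsets of arrays. A block on line and replicate number was also used, which sets each untreated array against the ATRA array of the same line and number. The shorter E2F core and the correlations without 1 array were added after seeing the data.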

Additional observations from a re-analysis of the deposited data

How the results depend on the processing

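The signs of the members' values held in 200 of 200 cases over 20 alternatives for ATRA in control cells, in 195 of 200 for ATRA in knockdown cells and in 190 of 190 over 19 alternatives for knockdown minus control after ATRA. The members' median change in control cells was -0.84 without the wild type arrays and also with scrambled and shRNA1 arrays only. For untreated knockdown minus control no alternative called a member, and values near 0 changed sign: with array weights BRCA1 to -0.0075, RAD54L to -0.0391 and MMS22L to -0.0004, and on leaving out 1 array in turn EXO1 ranged from -0.0231 to 0.14, BRCA1 from -0.18 to 0.20, BRIP1 from -0.24 to 0.0732, RAD54L from -0.0311 to 0.0692, RAD51AP1 from -0.11 to 0.0193 and BLM from -0.0619 to 0.16. Wider recombination genes called lower in control cells numbered 18 without wild type arrays and 17 with scrambled and shRNA1 arrays only, and in knockdown cells 13 with array weights. Those called higher in control cells were 2 with quantile normalization, where the median change was -0.32. Those called higher after ATRA, 1 as reported, were 3 with quantile normalization (median difference 0.21), 2 with the genes of lowest mean left out, 5 with array weights, 2 with trended robust variances, 0 without wild type arrays, 0 with scrambled and shRNA1 arrays only, and 0 to 3 on leaving out 1 array in turn. On leaving out 1 array in turn the wider median ran from -0.50 to -0.41 for ATRA in control cells, from 0.23 to 0.32 for knockdown minus control after ATRA and from 0.22 to 0.32 for the difference in response, which was 0.20 without wild type arrays. The causes were not tested. Same-numbered arrays of a line deviated together at r over 0.1 in 4 of 6 pairs. For wild type r was -0.173 and for scrambled replicate 1 -0.108. Of the 6 untreated arrays, 4 correlated best with the ATRA array of their own line and number. The labels do not state that the numbers pair the samples, so the main fit was unpaired. These values do not settle whether they are paired. With the replicate block 28 wider genes fell in control cells and 8 in knockdown cells, and over all genes 2300 were called higher and 3761 lower in control cells, against 2800 and 3844. Signal over background was not used here, so no limit is given for dim genes.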
